A study of Mus musculus with 24 samples.

Results

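The genes described here are the SLAM family receptors and their adaptor: Sh2d1a, Slamf1, Slamf6, Ly9, Cd84, Slamf7 and Cd48. They were picked by gene symbol, with earlier results of the same libraries known, and all 7 were found, among 55401 genes of the count table, each under a single identifier. Among those earlier results was the lower Slamf6 of CD8 knockout cells, so that comparison of Slamf6 is a description and no test of it is reported. RNA was sequenced after poly(A) selection from CD4 and CD8 T cells sorted from the spleens of C57BL/6 mice aged 12 weeks, which were then kept in culture for 2 days with antibodies to CD3 and CD28. Pou2af1, also known as OCA-B or BOB.1, encodes a coactivator that binds octamer transcription factors. Wild-type cells (CD4.Cre-.Pou2af1fl/fl) carried the loxP-flanked gene and no Cre. Heterozygous cells (CD4.Cre+.Pou2af1fl/+) and knockout cells (CD4.Cre+.Pou2af1fl/fl) both carried CD4.Cre, a recombinase gene under Cd4 control, so that presence of Cre and loss of Pou2af1 cannot be told apart against wild type. The titles call the wild type Pou2af1+/+ although its genotype field gives floxed alleles. Each of the 6 groups held 4 libraries, numbered 1 to 4.

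SLAM receptors are immunoglobulin-like surface proteins of blood cells that mostly bind their own kind on a neighbouring cell. When tyrosines in their tails are phosphorylated, the small adaptor SAP, the product of Sh2d1a, docks there and brings in the kinase Fyn. In its absence the same tails can recruit phosphatases. In T cells the system is known for prolonged contact with B cells, follicular helper function, killing of infected B cells and development of innate-like T cells. Cd48 is an exception within the family, since its product is held by a lipid anchor, has no tail and binds CD244 and CD2.

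Depth ranged from 11.9 to 21.8 megacounts in genes (median 14.0 over the 24 libraries). Levels are given as CPM, counts scaled to the library total after TMM normalisation. Over the 7 genes and 24 libraries the raw counts ran from 358 to 4602, far above the floor of 3 counts. Pou2af1 averaged 38.4, 20.2 and 2.20 CPM in CD4 wild-type, heterozygous and knockout cells and 27.7, 15.5 and 1.71 CPM in the CD8 groups, in the order of the labels. Group means of Cd4 were 477 to 511 CPM in CD4 and 0.56 to 0.90 CPM in CD8 cells, and those of Cd8a were 662 to 734 CPM in CD8 and 0.22 to 0.37 CPM in CD4 cells. The summed level of 6 B cell markers was 6.15 to 30.7 CPM per library, highest in CD4 wild-type library 3, and all 6 were above the floor in some library of every group. Among 6 natural killer markers, Ncr1, Klrb1c, Klra8 and Tyrobp averaged at most 0.22 CPM in any group. Klre1 averaged 0.13 to 0.45 CPM in CD4 and 3.93 to 6.00 CPM in CD8 groups, and Eomes, a factor that T cells also make, 19.3 to 26.4 and 60.2 to 66.9 CPM, so that the sum of the 6 was 12.5 to 97.1 CPM per library. The labels do not say whether the 4 libraries of a group came from separate animals, and the p-values measure only the spread between these libraries, part of which may be technical. Each group drew on at least 2 animals, since from Xist and Ddx3y counts wild type and knockout each held 1 female and 3 male libraries in either cell type, and the heterozygotes 2 and 2, the female ones being libraries 1 and 2.

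Compared per kilobase of annotated exon, Cd48 and Ly9 stood above the other members in every group. In CD4 wild-type cells Cd48 was at 80.3 ± 3.6 CPM per kb (SD, n = 4) and Ly9, a self-binding receptor also called SLAMF3, at 64.7 ± 1.3. Slamf1 followed at 21.8 ± 2.3 CPM per kb, and none of these 3 overlapped its neighbours in the order. The lowest Slamf1 library, at 18.9 CPM per kb, was however below the highest of Slamf6 (20.9) and of Slamf7 (20.7). Cd84, at 16.3 CPM per kb, Slamf6 at 14.0, Slamf7 at 12.6 and Sh2d1a at 12.1 came next, each overlapping its neighbour. In CD8 wild-type cells the order was Cd48 at 95.6 CPM per kb, Ly9 at 57.1, Slamf7 at 15.8, Slamf1 at 12.7, Cd84 at 12.3, Sh2d1a at 10.5 and Slamf6 at 7.90. There the neighbours from Slamf7 down to Sh2d1a overlapped, and Slamf6 lay below all others. With the longest transcript as the length, the CD4 wild-type order of the upper pair turned, Ly9 being at 86.1 and Cd48 at 80.5 CPM per kb with overlapping libraries. Slamf1, at 30.4 CPM per kb, then overlapped Cd84, at 29.7. In CD8 wild-type cells the order below Ly9 became Cd84, Sh2d1a, Slamf7, Slamf1 and Slamf6. There Slamf6, at 14.9 CPM per kb, overlapped Slamf1, at 17.6. The order of the lower members and their separation thus depend on the length used.

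**Figure D1:**
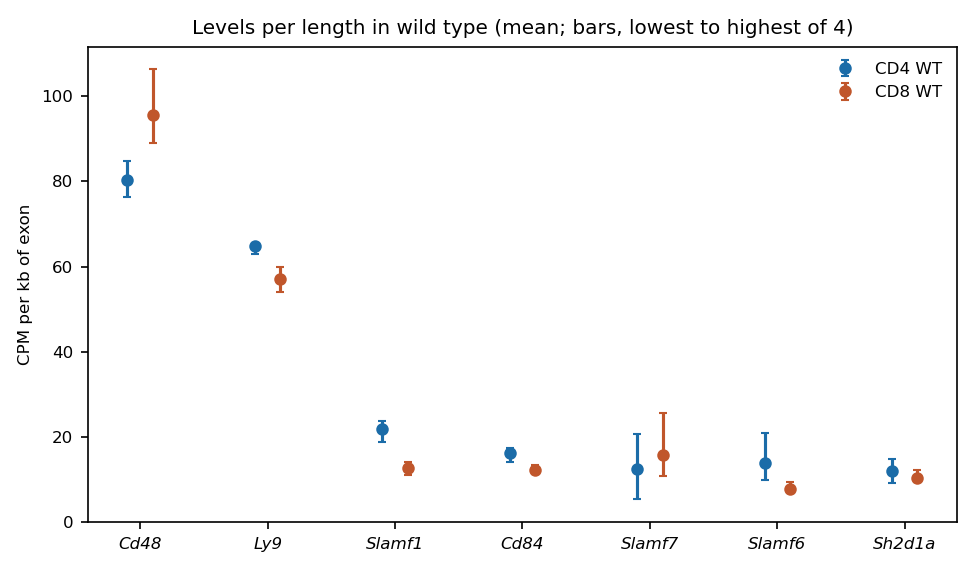
Level of each member in CPM per kilobase of annotated exon (vertical axis) in CD4 (blue) and CD8 (orange) wild-type libraries. Points are means and bars run from the lowest to the highest of 4 libraries; Cd48 and Ly9 lie above the other 5 genes in both cell types.

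The 6 receptor genes lie side by side on mouse chromosome 1 (GRCm38) between 171588624 and 171953170, a span of 364.5 kb. From the low end the order is Ly9 and Slamf7 on the minus strand, then Cd48, Slamf1, Cd84 and Slamf6 on the plus strand. Sh2d1a is on chromosome X, from 42502453 to 42529330, plus strand. Of its exon bases, 26.6% are shared with Tenm1 on the opposite strand, which had 14 counts over all libraries. The antisense gene Gm37787 shares 9.24% of Slamf7's exon bases and had 40 counts. No strand setting is given in the sources used here, but the counts of both partners were small beside those of the members.

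Promoter sequences from RefSeq (GRCm38.p6) matched 5 members: Slamf1, Slamf6, Cd84, Slamf7 and Cd48. Those of 3 are shown, the 250 bases before the start of transcription that RefSeq gives. They were taken because Slamf1 and Slamf6 had the widest difference between CD4 and CD8 cells and Slamf7 the widest spread between libraries. For Slamf6 and Cd48 the bases just after that start were found in 0 annotated transcripts, so the place of their windows is less certain. For Slamf1 and Cd84 they were found in 1 and for Slamf7 in 3. The Slamf7 window lies within the annotated span of its gene, 171632403 to 171653035. Capitals mark the ETS core GGAA on either strand, so TTCC on the strand printed.
Slamf1, chr1:171766882-171767131, plus strand: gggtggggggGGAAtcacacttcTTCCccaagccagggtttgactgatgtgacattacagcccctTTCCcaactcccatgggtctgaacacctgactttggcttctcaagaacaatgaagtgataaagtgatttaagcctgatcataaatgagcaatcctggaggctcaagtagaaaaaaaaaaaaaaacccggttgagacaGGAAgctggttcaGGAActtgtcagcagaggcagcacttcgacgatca
Slamf6, chr1:171917212-171917461, plus strand: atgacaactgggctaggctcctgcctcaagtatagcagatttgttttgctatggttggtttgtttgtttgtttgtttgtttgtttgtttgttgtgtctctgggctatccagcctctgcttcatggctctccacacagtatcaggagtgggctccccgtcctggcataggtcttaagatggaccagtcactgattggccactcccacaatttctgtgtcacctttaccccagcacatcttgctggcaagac
Slamf7, chr1:171649000-171649249, minus strand: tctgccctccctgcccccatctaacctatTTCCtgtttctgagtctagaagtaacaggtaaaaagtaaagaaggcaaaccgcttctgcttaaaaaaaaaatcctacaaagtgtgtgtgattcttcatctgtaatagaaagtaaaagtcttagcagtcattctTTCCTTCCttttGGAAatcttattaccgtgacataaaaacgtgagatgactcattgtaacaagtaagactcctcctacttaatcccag
The Slamf1 window held 5 ETS cores, Slamf7 held 4, Cd84 held 5 and Cd48 held 2, whereas that of Slamf6 held 0. Among 32544 promoter windows of this length 93.4% held at least 1, with a median of 3. The octamer ATGCAAAT, the sequence that the partners of the Pou2af1 protein bind, was searched on both strands and had 0 matches in all 5 windows, against 1.62% of all windows with a match. Each of the 5 held 1 E-box CANNTG (66.2% of all windows) and 0 CRE sites TGACGTCA (1.55% of all windows). A match or its lack says only which letters stand in the window.

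Within a cell type the genotypes were compared with edgeR's quasi-likelihood test over the 12 libraries, and calls were made where the p, adjusted by Benjamini-Hochberg over all genes tested, was under 0.05. No member tested was called in any of the 6 comparisons, and few genes of any kind were. In CD4 cells 0 of 7 members were called between knockout and wild type, where 0.0708% of 12719 genes were called. The heterozygote against wild type gave 0 of 7 beside 0.0865% of all genes, and knockout against heterozygote 0 of 7 beside 0.0157%. In CD8 cells the counts were 0 of the 6 members other than Slamf6 beside 0.0634% of 12612 genes for knockout against wild type, 0 of 7 beside 0.0634% for the heterozygote, and 0 of 7 beside 0.0159% for knockout against heterozygote. Without adjustment, edgeR's p was under 0.05 for 1 member (Ly9) in CD4 knockout against wild type, for Slamf6 in CD8 knockout against heterozygote, and for 0 in the other 4, where Slamf6 in CD8 knockout against wild type is not counted. No share of all genes is given at that threshold, so these counts are descriptions. DESeq2 called 1 member in CD8 knockout against heterozygote, Slamf6, beside 19 of all genes. The low Slamf6 of those knockout libraries was known beforehand, so neither this call nor its unadjusted p is independent support. In the other 5, on the same terms, DESeq2 called 0 members beside 2 to 79 of all genes. Whether the knockout effect differed between CD8 and CD4 cells was tested over all 24 libraries, with 0 of 7 members called by edgeR beside 0.00753% of 13288 genes, and likewise 0 of 7 beside 0.00753% for the heterozygote. Both counts were 0 at an unadjusted p under 0.05 and with DESeq2 as well.

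**Figure D2:**
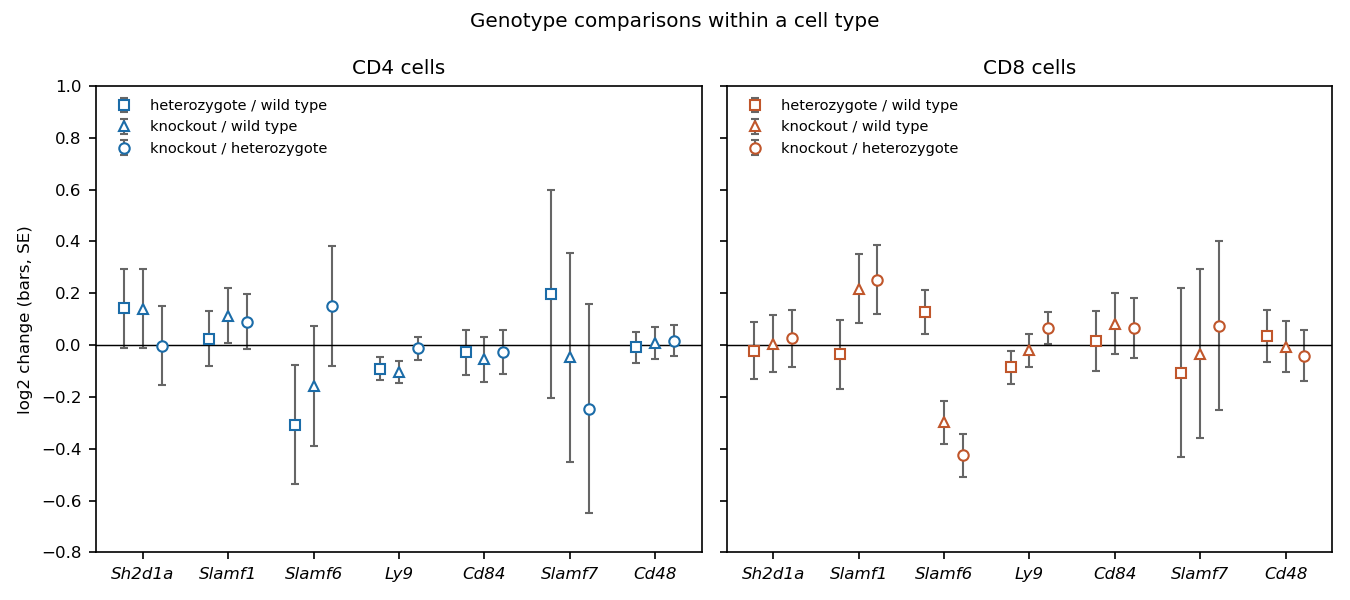
Log2 change between genotypes (vertical axis, bars show SE) for the 7 genes in CD4 cells (left) and CD8 cells (right), from edgeR fits of 12 libraries each. Slamf6 is at -0.30 and -0.43 in the CD8 knockout comparisons, and its low knockout level was known beforehand. The bars of Slamf7 are the longest.

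Between cell types the family differed more. CD8 cells had less Slamf1, Slamf6, Ly9 and Cd84 and more Cd48 than CD4 cells in wild type, all of them called. These 5 of 7 members stand beside a background of 31.2% of 13288 genes called (14.7% higher, 16.6% lower in CD8). In heterozygotes 5 of 7 were called (Slamf1, Ly9, Cd84 and Sh2d1a lower, Cd48 higher) beside 34.9% of genes (17.1% higher, 17.8% lower). In knockouts 2 of 7 were called, Slamf1 and Slamf6, both lower, beside 24.1% (11.0% higher, 13.0% lower). The median log2 change of the 7 members, CD8 over CD4, was -0.20, -0.36 and -0.28 in wild type, heterozygote and knockout, where the median of all genes was -0.02, 0.01 and -0.0026. Groups did not overlap for 5, 5 and 2 members, beside 31.3%, 38.3% and 20.9% of all genes. The CD8 knockout level of Slamf6 was known beforehand to be low, so the knockout call and non-overlap of Slamf6 are not independent support. Each cell type was summed over whole cultures, so fewer cells making a transcript and less transcript per cell cannot be told apart.

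**Figure D3:**
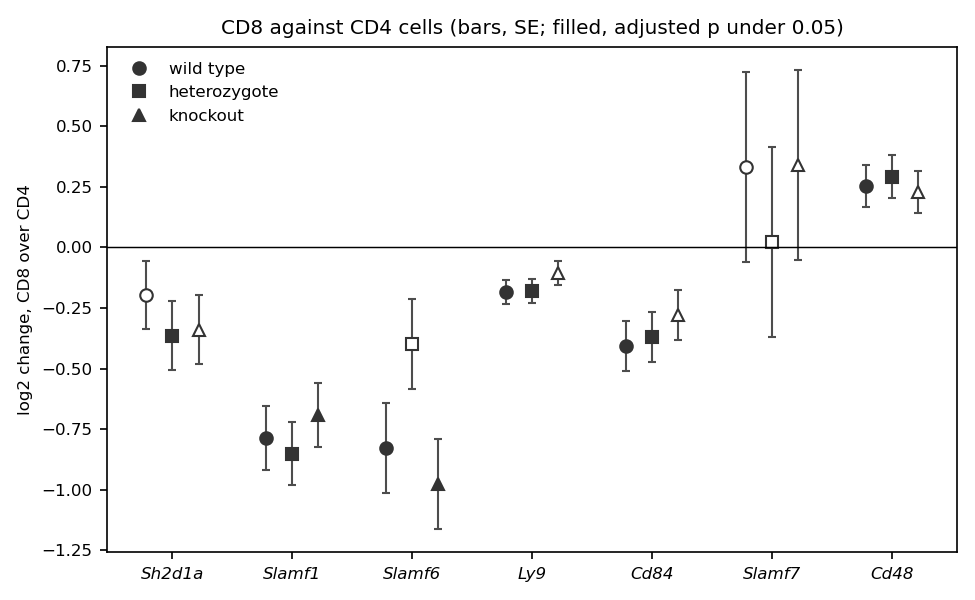
Log2 change of CD8 over CD4 cells (vertical axis, bars show SE) for the 7 genes in wild type, heterozygote and knockout, from edgeR's fit of 24 libraries. Filled symbols had an adjusted p under 0.05; Slamf1 is called in all 3 genotypes, between -0.69 and -0.85, and Cd48 lies above 0 in all 3.

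When same-numbered CD4 and CD8 libraries of a genotype were treated as pairs, which the shared sex of 12 of 12 pairs allows, 5 members were again called in wild type. The deviations of such pairs correlated (r 0.147 to 0.451). Those of same-numbered CD4 libraries of different genotypes did too (0.132 to 0.580), so the correlations do not single out these pairs. In heterozygotes Sh2d1a was lost (log2 change -0.37, edgeR adjusted p = 0.0675) and Slamf6 gained (-0.39, adjusted p = 0.0311). In knockouts the number called went from 2 to 4, with Cd84 at -0.29 (edgeR adjusted p = 0.0158) and Cd48 at 0.22 (adjusted p = 0.0428). Over all 13288 genes the pairing also raised the calls, from 4149 to 4903 in wild type, 4643 to 5336 in heterozygotes and 3198 to 3871 in knockouts. This pairing was chosen after seeing the data. The difference between cell types was itself not shown to vary with genotype for any member.

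Sh2d1a, the gene of the adaptor SAP, overlapped between genotypes, and its mean was lower in CD8 than in CD4 cells of each genotype. Sh2d1a measured 81.6, 76.9, 51.2 and 55.9 CPM in CD4 wild-type libraries 1 to 4. Sh2d1a was at 77.0, 76.3, 66.4 and 75.0 CPM in the CD4 heterozygotes. Sh2d1a gave 82.7, 81.5, 57.7 and 72.2 CPM in the CD4 knockouts. The low CD4 values were those of libraries 3 and 4 in wild type and 3 in knockout, and the 3 groups overlapped. Its CD8 values were 52.8, 55.6, 67.3 and 55.8 CPM in wild type. Heterozygous CD8 cells gave 54.7, 49.5, 55.4 and 69.3 CPM. Knockout CD8 cells gave 53.4, 51.1, 65.2 and 62.8 CPM. The CD8 groups covered nearly the same range, and CD4 exceeded CD8 in 10 of 12 same-numbered pairs. For such counts of pairs, here and below, no share of all genes was computed. Between knockout and wild type the log2 change was 0.14 (SE 0.15) in CD4 and 0.01 (SE 0.11) in CD8 cells. CD8 against CD4 gave -0.20 (SE 0.14, edgeR adjusted p = 0.309) in wild type, -0.36 (SE 0.14, adjusted p = 0.0498) in heterozygotes and -0.34 (SE 0.14, adjusted p = 0.0863) in knockouts. The heterozygote call did not survive leaving out CD4 heterozygote library 1, 2 or 4 or CD8 heterozygote library 1, 2 or 3, with adjusted p up to 0.131. Over all 19 alternatives it was kept in 9, with an adjusted p, by edgeR or DESeq2, of up to 0.314.

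Slamf1, which encodes the receptor SLAM or CD150, separated the cell types without overlap. Slamf1 measured 130.2, 116.7, 144.3 and 146.8 CPM in the CD4 wild-type libraries. Slamf1 was at 125.8, 124.0, 157.3 and 143.7 CPM in CD4 heterozygotes. Slamf1 gave 121.2, 143.8, 159.3 and 161.4 CPM in CD4 knockouts. Libraries 3 and 4 were the higher ones in wild type, heterozygotes and knockouts, and the 3 genotypes overlapped. CD8 wild-type cells had 67.8, 69.3, 87.5 and 87.1 CPM of this transcript. CD8 heterozygotes had 66.0, 64.7, 81.7 and 93.0 CPM of it. CD8 knockouts had 77.1, 82.6, 101.1 and 101.9 CPM of it. Again libraries 3 and 4 stood above 1 and 2 within each group. All 12 CD8 libraries (64.7 to 101.9 CPM) lay below all 12 CD4 libraries (116.7 to 161.4 CPM), a separation seen for 10.0% of genes and for no other member. The log2 change of CD8 over CD4 was -0.79 (SE 0.13, edgeR adjusted p = 9.1e-05) in wild type, -0.85 (SE 0.13, adjusted p = 3.0e-05) in heterozygotes and -0.69 (SE 0.13, adjusted p = 0.00040) in knockouts. Knockout against wild type gave 0.11 (SE 0.11) in CD4 and 0.22 (SE 0.13) in CD8 cells, neither called.

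Slamf6, the gene of the self-binding receptor also called Ly108, was called lower in CD8 than in CD4 cells of wild type and knockout, and varied widely among CD4 libraries. Slamf6 measured 108.6, 129.3, 226.5 and 143.4 CPM in CD4 wild-type cells. Slamf6 was at 116.1, 109.1, 129.0 and 140.3 CPM in CD4 heterozygotes. Slamf6 gave 85.6, 133.3, 175.6 and 153.6 CPM in CD4 knockouts. The highest of all 24 values was CD4 wild-type library 3, which also had the highest B cell marker sum, 30.7 CPM, and the CD4 knockout library 3 had the next highest Slamf6 and a B cell marker sum of 18.7 CPM. The second highest sum, 22.3 CPM, was that of CD8 knockout library 2, which had the lowest Slamf6 of all 24. Slamf6 is also made by B cells, and their part in these values was not tested. In CD8 cells the wild type gave 77.8, 79.7, 101.5 and 83.4 CPM. The CD8 heterozygotes gave 98.3, 99.5, 83.8 and 93.5 CPM. All 4 CD8 knockout libraries were within a narrow band, 69.5, 66.6, 71.4 and 71.0 CPM. These 4 lay below every library of the other CD8 groups.

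Against CD8 wild type, the Slamf6 level of CD8 knockouts had a log2 change of -0.30 (SE 0.08), and the non-overlap of these 2 groups is shared by 2.05% of genes. Because this difference was known when the genes were listed, it is given as a description. Against the CD8 heterozygotes, which carry the same Cre, the log2 change was -0.43 (SE 0.08) with an edgeR adjusted p of 0.439, and 2.73% of genes had non-overlapping groups in that comparison, which shares the knockout libraries with the former. With DESeq2 the adjusted p was 0.0103 at a log2 change of -0.43. In libraries 1 and 2 alone the change was -0.54 (edgeR adjusted p = 0.0181), and in libraries 3 and 4 alone it was -0.30 (adjusted p = 0.998). These sets hold 2 libraries a group. The low knockout values were known beforehand, so no p-value of knockout against heterozygote is independent support. The CD8 heterozygote libraries 1 and 2 were female, the knockout library 1 male and 2 female. With sex as a covariate, added after seeing the data, the log2 change was -0.38 (adjusted p = 0.471). In CD4 cells the knockout change was -0.16 (SE 0.23) against wild type, and without CD4 wild-type library 3 it was 0.10. The difference between the knockout effects of CD8 and CD4 cells was -0.15 (SE 0.26).

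CD8 cells had less Slamf6 than CD4 cells, by a log2 change of -0.83 (SE 0.19, edgeR adjusted p = 0.00176) in wild type and -0.98 (SE 0.19, adjusted p = 0.00045) in knockouts. The knockout comparison uses the CD8 knockout values known beforehand to be low, so its p-value is not independent support. For heterozygotes the value was -0.40 (SE 0.18, edgeR adjusted p = 0.0999), with no overlap between its CD4 and CD8 libraries. The CD4 library was the higher in 12 of 12 same-numbered pairs. Without CD4 wild-type library 3 the wild-type change was -0.57 (edgeR adjusted p = 0.00826).

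Ly9 was the most even of the receptor genes, with a ratio of 1.27 between its highest and lowest library. Ly9 measured 214.6, 216.9, 216.8 and 208.1 CPM in CD4 wild type. Ly9 was at 196.1, 211.3, 204.3 and 196.9 CPM in CD4 heterozygotes. Ly9 gave 206.6, 193.4, 198.0 and 203.1 CPM in CD4 knockouts. All 4 CD4 knockout libraries were below the lowest wild-type library, while the heterozygotes overlapped both. CD8 wild type had 191.7, 185.9, 179.1 and 198.2 CPM. For CD8 heterozygotes the Ly9 values were 173.3, 176.1, 193.4 and 170.4 CPM. For CD8 knockouts they were 197.3, 175.7, 181.8 and 189.3 CPM. The CD8 genotypes overlapped one another. In CD4 cells the knockout change was -0.10 (SE 0.04, edgeR adjusted p = 0.9998), and 1.55% of genes had non-overlapping groups there. CD8 over CD4 gave -0.18 (SE 0.05, edgeR adjusted p = 0.00783) in wild type, -0.18 (SE 0.05, adjusted p = 0.00699) in heterozygotes and -0.11 (SE 0.05, adjusted p = 0.130) in knockouts. CD4 was the higher in 12 of 12 same-numbered pairs. The differences were small and the counts high (2330 to 4602). The wild-type and heterozygote calls were lost when no filter on low counts was used (adjusted p = 0.0677 and 0.0915). Over all 19 alternatives the wild-type call was kept in 16 (highest adjusted p, by edgeR or DESeq2, 0.184). The heterozygote call was kept in 17 of 19 (highest 0.221).

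Cd84, the gene of another self-binding receptor that docks SAP, was called lower in CD8 cells of wild type and heterozygotes. Cd84 measured 109.6, 101.5, 108.3 and 89.0 CPM in CD4 wild type. Cd84 was at 104.6, 98.1, 98.4 and 101.5 CPM in CD4 heterozygotes. Cd84 gave 91.4, 113.8, 88.5 and 101.4 CPM in CD4 knockouts. No CD4 genotype stood apart. CD8 wild-type libraries gave 74.8, 83.8, 71.9 and 77.4 CPM for Cd84. CD8 heterozygous libraries gave 81.3, 85.6, 78.4 and 66.6 CPM. CD8 knockout libraries gave 81.2, 101.4, 70.3 and 72.7 CPM. Only library 2 of the CD8 knockouts reached the CD4 range. That library also had the highest sum of Cd4, Zbtb7b and Cd40lg among CD8 libraries, 18.2 CPM, the next being 8.99 CPM. In CD4 libraries this sum was 655 to 787 CPM. Its bearing on Cd84 was not tested. The log2 change of CD8 over CD4 was -0.41 (SE 0.10, edgeR adjusted p = 0.00487) in wild type and -0.37 (SE 0.10, adjusted p = 0.00830) in heterozygotes. The wild-type call was kept in 19 of 19 alternatives. The heterozygote call was kept in 18 of 19 (highest adjusted p, by edgeR or DESeq2, 0.0900). In knockouts it was -0.28 (SE 0.10, edgeR adjusted p = 0.0542), and -0.39 (adjusted p = 0.00384) without CD8 knockout library 2. Knockout against wild type gave -0.05 (SE 0.09) in CD4 and 0.08 (SE 0.12) in CD8 cells.

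Slamf7, whose product CRACC is known from natural killer cells and cytotoxic T cells, spread most between libraries, 4.65-fold from lowest to highest. Slamf7 measured 29.4, 25.2, 94.9 and 80.3 CPM in CD4 wild type. Slamf7 was at 48.1, 56.5, 85.7 and 75.8 CPM in CD4 heterozygotes. Slamf7 gave 35.0, 47.1, 57.4 and 85.0 CPM in CD4 knockouts. Libraries 1 and 2 were the low ones in all 3 groups, and most clearly in wild type. Its CD8 wild-type values were 50.3, 53.5, 68.5 and 117.4 CPM. Its CD8 heterozygote values were 54.4, 51.2, 100.8 and 63.6 CPM. Its CD8 knockout values were 49.0, 45.6, 83.6 and 105.8 CPM. Here too libraries 3 and 4 exceeded 1 and 2 within each group, and the genotypes overlapped. With this spread the SE of a genotype change was 0.33 to 0.40, and no change passed: CD4 knockout against wild type was -0.05 and CD8 knockout against wild type -0.03. CD8 against CD4 was 0.33 (SE 0.39, edgeR adjusted p = 0.550), 0.02 (SE 0.39, adjusted p = 0.971) and 0.34 (SE 0.39, adjusted p = 0.584) in wild type, heterozygotes and knockouts.

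Cd48, the gene of the lipid-anchored ligand of CD2 and CD244, was the only member called higher in CD8 cells. Cd48 measured 90.7, 100.9, 93.9 and 96.1 CPM in CD4 wild type. Cd48 was at 94.4, 101.2, 94.2 and 91.7 CPM in CD4 heterozygotes. Cd48 gave 92.3, 89.6, 104.7 and 99.4 CPM in CD4 knockouts. The CD4 values were nearly level. Wild-type CD8 libraries had 106.0, 105.7, 126.6 and 116.3 CPM of Cd48. Heterozygous CD8 libraries had 107.5, 106.0, 118.8 and 134.9 CPM. Knockout CD8 libraries had 108.0, 96.2, 119.1 and 129.2 CPM. The CD8 library was the higher in 12 of 12 same-numbered pairs, though CD8 knockout library 2 lay within the CD4 range. The log2 change of CD8 over CD4 was 0.25 (SE 0.09, edgeR adjusted p = 0.0313) in wild type, 0.29 (SE 0.09, adjusted p = 0.0120) in heterozygotes and 0.23 (SE 0.09, adjusted p = 0.0593) in knockouts. The wild-type call was lost without CD4 wild-type library 1 or 3 or CD8 wild-type library 3 or 4 (highest adjusted p = 0.108), the heterozygote call without CD8 heterozygote library 4 (0.0602). Over all 19 alternatives, including these, the wild-type call was kept in 13 (highest adjusted p, by edgeR or DESeq2, 0.182). The heterozygote call was kept in 17 of 19 (highest 0.256). Knockout against wild type was 0.01 (SE 0.06) in CD4 and -0.01 (SE 0.10) in CD8 cells.

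**Figure D4:**
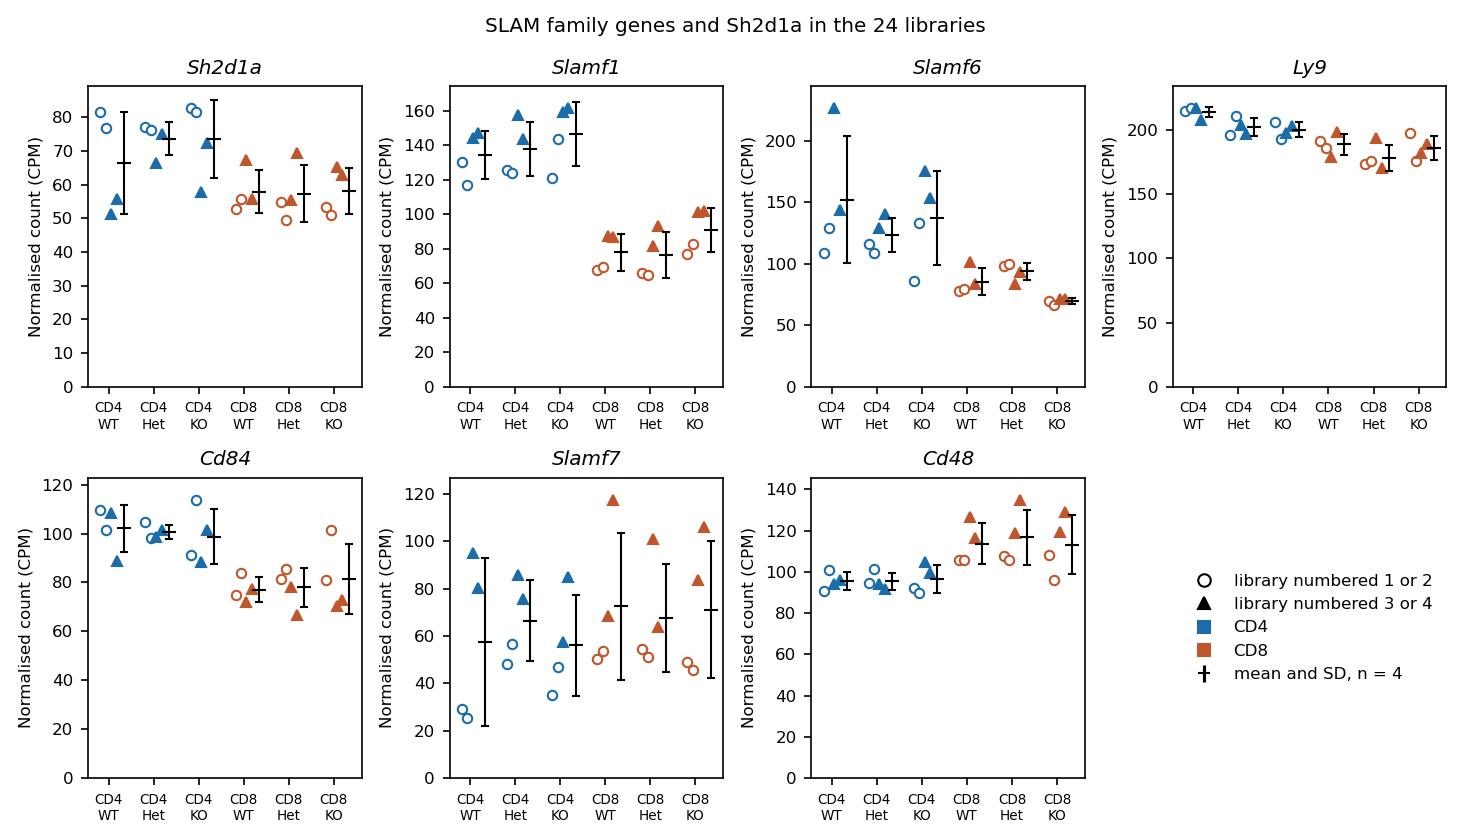
Normalised counts (CPM, vertical axis from 0) of each member in the 24 libraries, grouped by cell type and genotype. Circles are libraries 1 and 2, triangles libraries 3 and 4, and black marks the mean with its SD; only Slamf1 keeps CD4 (blue) and CD8 (orange) libraries fully apart, and the 4 CD8 knockout values of Slamf6 lie below the other CD8 values.

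The libraries numbered 1 and 2 differed from those numbered 3 and 4 in several members, in both cell types. The labels do not say what the numbers stand for, and each genotype holds both kinds, so the split is not confounded with genotype. In heterozygotes of both cell types, however, libraries 1 and 2 were female and 3 and 4 male. Library set and sex cannot be told apart in those 2 groups. In wild type the female was library 3 and in knockouts library 2. Slamf7 was higher in libraries 3 and 4 in all 6 groups, with ratios of the means of 3.20 in CD4 wild type, 1.54 and 1.73 in CD4 heterozygotes and knockouts, and 1.79, 1.56 and 2.00 in the CD8 groups. A ratio above 1.5 in all 6 groups was seen for 1.22% of 13288 genes. Slamf1 was also higher in libraries 3 and 4 in all 6 groups, 1.18-fold to 1.34-fold, a direction shared by 14.0% of genes. Sh2d1a went opposite ways, with ratios of 0.68, 0.92 and 0.79 in CD4 and 1.14, 1.20 and 1.22 in CD8 groups. Cd48 was at 0.99, 0.95 and 1.12 in CD4 and at 1.15, 1.19 and 1.22 in CD8 groups, while Ly9 stayed between 0.98 and 1.04. Slamf6 was higher in libraries 3 and 4 of each CD4 group, by ratios of 1.20 to 1.55, and stood at 1.17, 0.90 and 1.05 in the CD8 groups. Cd84 was lower in libraries 3 and 4 in all 6 groups, with ratios of 0.93, 0.99 and 0.93 in CD4 and 0.94, 0.87 and 0.78 in CD8. No share of all genes was computed for a lower mean in all 6 groups, so this is a description.

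**Figure D5:**
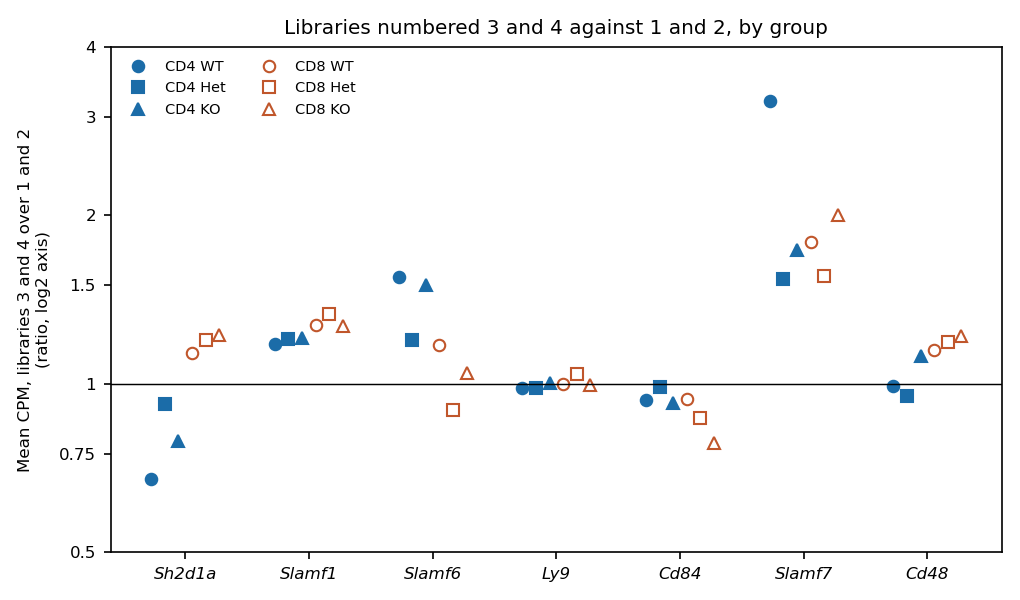
Ratio of the mean CPM of libraries 3 and 4 to that of libraries 1 and 2 (log2 axis) for each member in each of the 6 groups. All 6 Slamf7 points lie above 1.5, Ly9 points lie near 1, and Sh2d1a points lie below 1 in CD4 (filled) and above 1 in CD8 (open) groups.

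Comparisons made within these sets gave different values for Slamf7 and Sh2d1a. In libraries 1 and 2 alone, Slamf7 of CD4 heterozygotes exceeded that of CD4 wild type by a log2 change of 0.93 (edgeR adjusted p = 0.0196), and in libraries 3 and 4 alone the change was -0.11 (adjusted p = 0.766). In the first set both heterozygote libraries were female and both wild-type libraries male. For CD8 against CD4 in wild type, Slamf7 changed by 0.92 in libraries 1 and 2 (edgeR adjusted p = 0.000237) and by 0.09 in 3 and 4 (adjusted p = 0.853). Sh2d1a was lower in CD8 wild-type cells by a log2 change of -0.55 in libraries 1 and 2 (edgeR adjusted p = 0.000118) and was at 0.20 in libraries 3 and 4 (adjusted p = 0.328). In knockouts the Sh2d1a values of the same comparison were -0.65 (edgeR adjusted p = 3.4e-05) and -0.02 (adjusted p = 0.939). Each set holds 2 libraries a group, and where these share a sex they may come from 1 animal. The p-values of these comparisons measure only the spread between those libraries. The differences between the sets were not themselves tested.

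Other SLAM family genes were scarce. Slamf9 averaged 1.27 ± 0.74, 0.82 ± 0.20 and 0.76 ± 0.44 CPM (SD, n = 4) in CD4 wild type, heterozygotes and knockouts. CD8 libraries had 0 to 3 counts of Slamf9 in wild type, 0 in heterozygotes and 0 to 2 in knockouts, at or below the floor, and edgeR called it lower in CD8 cells in all 3 genotypes (highest adjusted p = 0.0034). Cd244a, the receptor for CD48, averaged 0.67 to 1.36 CPM over the 6 groups and was not called. Slamf8 and the adaptor genes Sh2d1b1 and Sh2d1b2 had 0 to 3 counts in every library.

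Among 18 genes for signalling partners of SLAM receptors, all tested, edgeR and DESeq2 called 0 in each genotype comparison within a cell type. At an unadjusted p under 0.05 edgeR gave 1 (Fyn) in CD8 knockout and 1 (Nck1) in CD8 heterozygote against wild type, and 0 in the other 4. No share of all genes is given at that threshold, so these counts are descriptions. CD8 against CD4 gave 2 higher and 3 lower in wild type, 6 and 4 in heterozygotes and 2 and 2 in knockouts, to be read beside the backgrounds of 31.2%, 34.9% and 24.1%. Ptpn11, which encodes the phosphatase SHP-2, was lower in CD8 cells by log2 changes of -0.42 (SE 0.06) in wild type, -0.48 (SE 0.06) in heterozygotes and -0.49 (SE 0.06) in knockouts, called in each. Bcl10, a link between the kinase PKC-theta and NF-kappaB, was also called in all 3, at -0.23, -0.29 and -0.29. Fyn, the kinase that SAP brings to the receptors, was called in wild type at -0.27 (SE 0.07). Vav1, an exchange factor downstream of Fyn, was called higher in CD8 cells in all 3, at 0.24, 0.16 and 0.17 (SE 0.05 each). Nck1, an adaptor of the cytoskeleton, was called higher in heterozygotes at 0.27 (SE 0.08). Fyb, an adaptor that binds Fyn, was called higher in heterozygotes at 0.66 (SE 0.17) and in knockouts at 0.53 (SE 0.17).

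Of 12 genes reported downstream of SLAM signals, 9 were tested in CD4 and over all libraries and 8 in CD8 cells, and edgeR called 0 in any genotype comparison. DESeq2 called 1, Ifng in CD4 heterozygote against wild type. At an unadjusted p under 0.05 edgeR gave Ifng in both CD4 heterozygote comparisons, Cxcr5 in both CD8 knockout comparisons and 0 in the other 2. Here too no share of all genes is given at that threshold. Between cell types 2 were higher and 3 lower in CD8 wild-type cells, 3 and 3 in heterozygotes and 2 and 3 in knockouts, that is 5, 6 and 5 of 9 beside 31.2%, 34.9% and 24.1% of all genes. Ifng, the gene of interferon gamma, averaged 263 ± 43 CPM in CD8 and 1.95 ± 1.10 CPM in CD4 wild-type cells (SD, n = 4). This gene and the next 3 named were called in all 3 genotypes. Cd40lg, the ligand by which helper cells act on B cells, averaged 1.24 ± 0.52 and 144 ± 15 CPM in the same order. Gata3, a type 2 helper regulator, was lower in CD8 wild-type cells by a log2 change of -1.20 (SE 0.15). Maf, a regulator of helper cytokines, was lower by a log2 change of -2.76 (SE 0.45) from a CD4 mean of 1.13 CPM.

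Across the 12 CD4 libraries and, separately, the 12 CD8 libraries, some members followed other genes closely. These correlations are descriptions on log2 CPM, and the libraries in them share genotypes and number sets. Slamf7 was most like Kdm3a, with r = 0.94 in CD4 and 0.94 in CD8, Sap30 (0.93 and 0.95) and Pfkfb3 (0.94 and 0.92). Sh2d1a was most like Aatf (0.91 and 0.92), Ddx21 (0.90 and 0.94) and Cct8 (0.93 and 0.90). Setbp1 (0.89 and 0.92), Cd200 (0.87 and 0.88) and Camk2d (0.90 and 0.87) were nearest to Slamf1. For Slamf6 the nearest were Dcaf4 (0.82 and 0.85), Pacs2 (0.79 and 0.84) and Cpm (0.76 and 0.89). For Cd84 they were Zfp974, Cgrrf1 and Lcor, with r from 0.71 to 0.78, and for Cd48 Smpd4, Pccb and Mrpl16, from 0.71 to 0.81. The even Ly9 had the lowest values, 0.57 to 0.71 for Fkbp2, Sh3d19 and Trabd.

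Between members, Slamf1 and Slamf7 varied together in both cell types, with r = 0.77 over CD4 and 0.66 over CD8 libraries. Cd84 and Cd48 ran opposite ways, at -0.55 and -0.87. Other pairs changed sign between cell types: Sh2d1a and Cd48 were at -0.33 in CD4 and 0.88 in CD8, Sh2d1a and Slamf1 at -0.56 and 0.75, and Sh2d1a and Slamf6 at -0.81 and 0.17. The receptor genes of the chromosome 1 cluster thus did not all vary together, as Cd84 and Cd48 show. Ly9 had an r between -0.46 and 0.43 with every other receptor gene. It varied so little between libraries that a low r says little about the cluster.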

How the data were processed

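The raw gene counts are whole-number counts the authors deposited for 24 libraries. Per the submitters' processing notes, Trimmomatic 0.35, STAR 2.7.1a, DESeq2 1.26.0 and the build GRCm38 were used. Annotation release and strand setting: not given in the sources used here. Summary lines for reads without a gene (31.6% to 35.0% of all entries) were left out. The deposited normalized table was not used. Over 36 pairs of libraries of a group, chi-square per degree of freedom was at least 2.78, so none agreed within sampling noise. The number of unused sample columns was 0.

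Counts were fitted in R 4.3.3 with edgeR 4.0.16 (filterByExpr with its minimum count of 10, TMM, quasi-likelihood F test, 2-sided). Genotypes were compared over the 12 libraries of a cell type (9 residual degrees of freedom) and cell types over all 24 (18 degrees of freedom). DESeq2 1.42.0 was an alternative. The fit was tested on simulated data. SE is the size of the log2 change divided by the root of its F. Log2 CPM for correlations had a prior count of 2. A floor of 3 counts covers counting error alone, because reads lacked molecular identifiers.

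The members, lists and tests were chosen with earlier results of these data known. All 7 members are named in every comparison; of the other SLAM genes those with a group mean of at least 1 CPM, of the partner and downstream lists called genes, up to 4 of lowest p per comparison, and per member the 3 genes of highest likeness (the lower r of CD4 and CD8). Slamf8, Sh2d1b1 and Sh2d1b2 are named outside that rule, after their values were seen. Same-numbered libraries deviated together between CD4 genotypes (r 0.132 to 0.580) and between CD4 and CD8 cells of a genotype (0.147 to 0.451), but not between CD8 genotypes (lowest -0.226); the labels do not say what the numbers mark. Alternatives were other size factors, no filter, a replicate block, covariates for sex and for library set, either set alone, DESeq2 and leaving out each library.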

Additional observations from a re-analysis of the deposited data

How the results depend on the processing

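Of 1491 member values under alternatives, 1435 kept their direction and side of the threshold, 24 lost the call, 32 gained it and 0 called values reversed; 143 values changed sign, all of members not called, and are counted as kept. The number of members called moved to 1 in CD4 heterozygote against wild type (libraries 1 and 2 only), to 1 in CD8 knockout against heterozygote (libraries 1 and 2 only; DESeq2), to 3 in CD8 against CD4 without a filter in wild type and in heterozygotes, and to 3 in heterozygotes with libraries 1 and 2 only. In knockouts the 2 calls of CD8 against CD4 became 5 with a replicate block by cell type, 4 with the block as 1 factor or by genotype and number, 5 with the library set or sex and set as covariates, and 4 in libraries 3 and 4. Over all genes these settings moved the 3198 calls to 4106, 4004, 3871, 4439, 4519 and, in libraries 3 and 4, 2647, in that order, the 4149 of wild type to 3519 without a filter, and the 4643 of heterozygotes to 4084 without a filter and 4069 in libraries 1 and 2. Leaving out single libraries gave 4 to 5, 4 to 5 and 2 to 5 calls in wild type, heterozygotes and knockouts (5 without CD4 knockout library 3, 4 without CD8 knockout library 2) and 0 in all genotype comparisons. The sex covariate and the pairing by genotype and number were chosen after seeing the data. The calls in CD8 knockout against heterozygote were of Slamf6, whose low CD8 knockout level was known beforehand, and are not independent support. The same holds for Slamf6 among the calls of CD8 against CD4 in knockouts. The cause of these moves was not tested.

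Over all genes, the 11 calls of CD4 heterozygote against wild type became 45 with the replicate block, 79 with the set covariate, 491 with sex and set, 251 and 56 in the 2 sets, 79 with DESeq2 and 7 to 9 without single libraries (7 without CD4 wild-type library 3 or CD4 heterozygote library 1). The 2 calls of CD4 knockout against heterozygote became 7 (sex and set) and 13 (libraries 3 and 4). In CD8 cells knockout against wild type went from 8 to 5 in either set, heterozygote against wild type from 8 to 4 in libraries 3 and 4, and knockout against heterozygote from 2 to 242 and 1 in the sets, 19 with DESeq2 and 2 to 4 without single libraries (4 without CD8 heterozygote library 3). The single call for the knockout effect between cell types became 0 in either set, and that for the heterozygote effect 3 (block by cell type; set; sex and set), 2 (block by genotype and number) or 0 (either set). The pairing changed no member's call in a genotype comparison. With 4 libraries a group, the SE of 0.33 to 0.40 for Slamf7 limits what its genotype comparisons can show, beside a counting error of 3.26% to 4.00% of its level per library. Where libraries varied least, their spread was about that of counting: Slamf6 of CD8 knockouts had an SD of 3.16% of its mean and a counting error of 3.11%, and Ly9 of CD4 wild type 1.93% and 1.72%.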
